A study of Mus musculus with 30 samples.

Results

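The 5 vehicle-treated mammary tumors, labelled as controls, were taken from a series of 30 bulk RNA sequencing libraries and described on their own. All mice carried FVB/N-Tg(MMTV-PyVT)634Mul/J, in which the MMTV promoter drives the polyoma middle T oncoprotein in mammary epithelium and tumors arise spontaneously, and the genotype label was WT throughout. The other 25 libraries formed 5 groups of 5 tumors, given the heme oxygenase-1 inhibitor KCL-HO-1i (25 µmol/kg daily), gemcitabine (64 mg/kg every 7 days), 5-FU (40 mg/kg every 4 days), or the inhibitor together with either drug, all by intraperitoneal injection. The combined groups are named KCL-HO-1i/gemcitabine and KCL-HO-1i/5-FU. The labels placed tumor collection 72 h after the start of treatment, whereas the paper states an earlier time and a smaller gemcitabine dose. What the vehicle was, the age of the mice and the position of the tumor were not given in the labels. The design text assigned 5 mice to each group. The leading number of the sample code took 4 values over the vehicle tumors, because replicates 2 and 3 share the number 63. Their full sample codes differ, and the meaning of the number is not stated. RNA came from whole tumor tissue, so tumor epithelium, stroma, blood and adjacent fat were measured as a mixture, and the transgene itself was not measured here.

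Polyoma middle T antigen is a membrane-bound scaffold that recruits Src family kinases, phosphatidylinositol 3-kinase and Shc, and so mimics a constantly active growth factor receptor. The mammary epithelium in which it acts has an inner luminal layer, whose alveolar cells make milk proteins under prolactin, Stat5 and Elf5, and an outer basal layer of contractile cells. Around the epithelium lie fibroblasts, which deposit collagen, together with vessels, macrophages and adipocytes.

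Total counts were between 10874640 and 13482226 per vehicle library, and levels are given as CPM, the count of a gene scaled to a common library size after TMM adjustment. With a mean of at least 10 CPM as the limit for an expressed gene, 9684 of the 21841 genes in the table were expressed and held 98.6% of all counts. Mrgbp lay just inside this limit at a mean of 10.006 CPM and Alkbh4 just outside at 9.997 CPM. Of the expressed genes 8838 reached 10 CPM in each of the 5 tumors.

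Replicate 3 stood apart from the other vehicle libraries. Over the 9684 expressed genes, Pearson's r of log2(CPM + 1) was between 0.868 and 0.889 for the 4 pairs that included replicate 3, and between 0.958 and 0.978 for the 6 pairs that did not. These are descriptions across genes, which are not independent and share the gene-specific level. Counting the expressed genes that lay at least 4-fold beyond every other tumor on log2(CPM + 1), replicate 3 had 42 higher and 109 lower, against 4 and 1 in replicate 1, 0 and 0 in replicate 2, 3 and 2 in replicate 4 and 1 and 0 in replicate 5. Part of the genes counted as higher, such as Ucp3 and Klk7 in replicate 3, passed the limit of 10 CPM only through that tumor. For such genes the place was fixed in advance, and the counts of higher genes are not evidence on their own. Of all expressed genes 36 reached 10 CPM in only 1 tumor. Its depth (11465391 counts) and number of genes with at least 1 count (14629, against 14789 to 14929) were close to the others. Values below are therefore given per tumor, and results that rest on replicate 3 also without it.

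The libraries were led by genes of secreted proteins known from mammary epithelium, although their cell source was not measured in whole tissue. Trf, which encodes the iron carrier transferrin and is made by secretory mammary cells, had the highest mean at 14362 ± 5997 CPM (SD, n = 5). Its values were 18528, 15694, 3789.6, 17078 and 16719 CPM in replicates 1 to 5, so that replicate 3 lay below all others. Csn3, κ-casein of the milk micelle, followed at 13956 ± 3677 CPM (SD, n = 5), with 16939, 17403, 9538, 10527 and 15374 CPM. Replicates 3 and 4 were lower than the other 3 tumors for this gene. Igfbp5, an insulin-like growth factor binding protein of the mammary gland, came next at 10939 ± 4342 CPM (SD, n = 5), with 11767, 11223, 3555, 14556 and 13596 CPM and replicate 3 again lowest.

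Lcn2, lipocalin 2, which sequesters bacterial siderophores, had 6883, 4312, 2907, 5533 and 4305 CPM in replicates 1 to 5. The secreted phosphoprotein osteopontin, encoded by Spp1, had 8119, 3820.4, 1027, 5191 and 3409 CPM. Replicate 1 was the highest and replicate 3 the lowest for each of these genes. The remaining leaders were general cell machinery, namely the elongation factors Eef1a1 (10919 ± 911 CPM, SD, n = 5) and Eef2, the cytoplasmic actin gene Actg1, the actin crosslinker Actn4, the chaperone Hsp90ab1, the chromatin-associated Ptma, Tpt1, the ribosomal Rps14 and Rplp0, the membrane proteins Ly6e and Serinc3, and mt-Co1, mt-Co2, mt-Cytb and mt-Nd1 of the mitochondrial genome. For Eef1a1 the 5 tumors lay between 9824 and 11721 CPM, a far narrower range than for Trf.

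**Figure D1:**
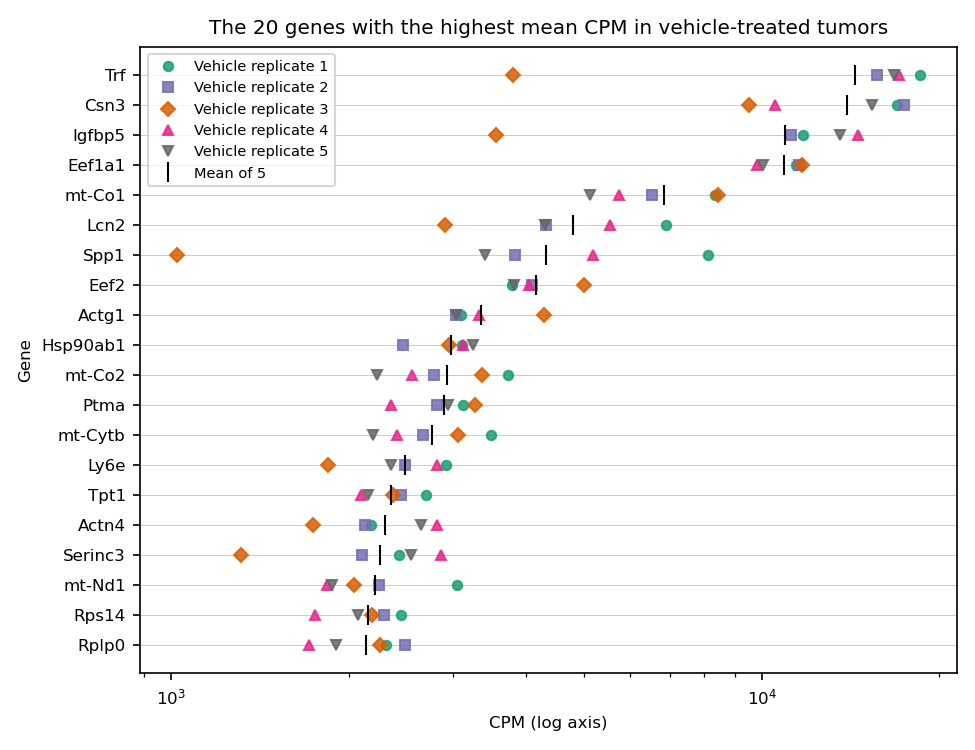
CPM (log axis) of the 20 genes with the highest mean in the 5 vehicle-treated tumors, 1 symbol per tumor with the mean as a bar. Trf, Igfbp5 and Spp1 have a low value in replicate 3 (3789.6, 3555 and 1027 CPM), while Eef1a1 spans 9824 to 11721 CPM.

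The 20 leading genes held 10.2% of all counts (mean share over the 5 libraries), the leading 100 held 21.0%, and 928 genes held 50%. Per tumor the 20 leading genes of that tumor took between 8.23% in replicate 3 and 11.9% in replicate 1. Scaled to transcript length, the level of Csn3 was highest, at 20112 on the TPM scale, ahead of Eef1a1 (11078), Trf (10682) and Lcn2 (9508), and 13 of the 20 leading genes were the same on both scales. Igfbp5, with a median transcript of 6006 bases, moved to rank 27 per length, and short transcripts such as Wfdc18, a whey acidic protein family member (5285 on the same scale), entered.

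By programme, the cytosolic ribosomal proteins were the largest of the 30 programme lists, with 82 of 85 genes expressed and 7.8% of all counts (6.72% to 9.14% per tumor). The 14 translation factors held 2.67% and the 13 protein-coding genes of the mitochondrial genome 2.28% (1.83% to 2.87%). Milk proteins held 1.65%, secreted epithelial defence proteins 1.62%, the cytoskeleton list 1.45% and 14 glycolytic enzymes 1.17%. The mitochondrial list summed to 29361, 21872, 25136, 19118 and 18263 CPM in replicates 1 to 5, highest in replicate 1 and lowest in replicate 5. Ribosomal proteins were likewise highest in replicate 1, at 93366, 79206, 79947, 65073 and 70945 CPM.

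The tissue label was met by luminal markers. Epcam, the epithelial adhesion molecule, had 1346, 1187, 888, 1313 and 1408 CPM, Krt8 1222, 1450.2, 1256, 1167 and 1612 CPM and Krt18 945, 1153, 986, 889 and 1139.5 CPM in replicates 1 to 5. The 20 luminal genes summed to 7755, 8019.6, 7661, 7657 and 8594 CPM, the smallest spread relative to its mean among the 22 lineage lists, at 7937 ± 396 CPM (SD, n = 5). Elf5, the regulator of alveolar fate, had 521, 428, 564, 354 and 488 CPM, Kit, a receptor of luminal progenitors, had 236, 367, 126, 458 and 362 CPM, and Prlr, the prolactin receptor, had 111, 117, 130.4, 109.8 and 138 CPM. Markers of hormone-sensing luminal cells were low. The estrogen receptor gene Esr1 had 10.3, 7.7, 6.33, 10.5 and 6.25 CPM, the progesterone receptor gene Pgr 1.69, 2.76, 0, 3.73 and 3.64 CPM and Foxa1 2.16, 1.31, 0, 2.88 and 0.669 CPM. Values at or below 0.282 CPM correspond to 3 counts or fewer in the shallowest vehicle library, a limit that covers counting error only.

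Basal genes were present at lower levels. Krt14 had 93.4, 93.6, 160.3, 42 and 67.4 CPM, Krt5 46.6, 43.9, 65, 22.5 and 65.6 CPM and Trp63, the basal transcription factor p63, 22.1, 15.7, 42.3, 16.5 and 16.7 CPM. The contractile genes Acta2 (16.5 CPM in replicate 1, 9.06 CPM in replicate 3) and Cnn1 (at most 0.509 CPM) were lower still. The basal list summed to 213, 207, 424, 125 and 218 CPM, highest in replicate 3.

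Milk genes differed in which tumor held most of them. Csn2, β-casein, had 290.4, 101, 1360.5, 47.6 and 118 CPM and Wap, whey acidic protein, 54.4, 56.3, 661, 27.1 and 60 CPM, so replicate 3 was far above the other 4 tumors. Lalba, α-lactalbumin, the regulatory subunit of lactose synthase, had 1009.7, 1868, 507, 411 and 759 CPM and was highest in replicate 2. Csn1s1, α-casein, had 307, 391, 689, 62.6 and 1046 CPM, with replicate 5 highest and replicate 4 lowest. Among the 8 expressed milk genes the median SD of log2(CPM + 1) was 1.20, against 0.21 over all expressed genes, and without replicate 3 it was 0.58 against 0.17.

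Stromal lists varied more than the luminal one. A lower sum in a bulk library can mean fewer cells of a type or less RNA per cell, which cannot be told apart here. The 14 fibroblast genes summed to 987, 743, 132, 1202 and 352 CPM in replicates 1 to 5, with replicate 3 below all others. Col1a1, the chain of type I collagen, had 193, 148, 34.2, 237 and 68.1 CPM, Postn, the matricellular periostin, 208, 120.5, 15, 197 and 49.8 CPM and Pdgfra, the PDGF receptor of fibroblasts, 20.3, 14.9, 0.967, 16.9 and 11.2 CPM. All 8 expressed fibroblast genes were lowest in replicate 3, which was the lowest tumor for 2449 of the 9684 expressed genes. Pericyte markers did not follow this order, with Rgs5 at 19.7, 43.9, 37.6, 31.2 and 31.3 CPM. Blood endothelium summed to 101, 131, 85.1, 124 and 98 CPM, and its defining Pecam1 had 21.3, 32.1, 18.2, 28.2 and 25.7 CPM.

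Macrophage genes had the highest sums of the immune cell lists. The 13 genes summed to 759, 1162, 257, 765 and 426 CPM, led by Lyz2 (lysozyme, 221, 621, 48.7, 246 and 88.7 CPM) and Cd14, and the complement gene C1qa had 59.8, 73.9, 9.67, 63 and 31.4 CPM. Csf1r, the receptor for the macrophage growth factor, had 37, 52, 14.3, 58.3 and 25.2 CPM. Replicate 2 was highest and replicate 3 lowest for the sum. Lyve1, a marker of perivascular macrophages and of lymphatic vessels, had 1.78, 0.0727, 0.352, 4.24 and 0.818 CPM. The value of Lyve1 in replicate 2 lay below the 3-count limit. Hmox1, which encodes heme oxygenase-1, had 32.9, 51.3, 84.7, 59.9 and 18.4 CPM, with replicate 3 highest and replicate 5 lowest. The 8 perivascular macrophage genes, which include both, summed to 81.5, 109.9, 106.3, 139.3 and 53.6 CPM. Of the 3 expressed members 1, Hmox1, was highest in replicate 3 and 1, F13a1 (23.5, 20.3, 1.93, 22.6 and 11.2 CPM), was lowest there.

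MHC class II genes, used by antigen-presenting cells, summed to 384, 437, 47.2, 654 and 215 CPM. Cd74, the invariant chain, had 172, 192, 9.41, 373 and 106 CPM and H2-Aa 22.6, 18.8, 0.264, 35.3 and 8.63 CPM, and again replicate 3 was lowest and replicate 4 highest. Replicate 4 was also highest for the MHC class I list, at 2138, 1404, 1872, 2674 and 1294 CPM, in which replicate 3 was not low.

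Lymphocyte transcripts were sparse, and some members lay near the 3-count limit of 0.282 CPM. The T cell list summed to 11.6, 11.4, 5.72, 12.4 and 9.52 CPM in replicates 1 to 5, of which most came from Cd247 (3.57, 5.52, 3.17, 2.12 and 4.24 CPM) and Lck, while Cd3e had 0.564, 0.291, 0, 0.678 and 0.521 CPM and Cd8a 0.564, 0.363, 0.616, 1.53 and 0.967 CPM. Ifng, interferon-γ, had 0 counts in the 5 tumors, and the granzyme gene Gzmb had 2.16, 1.45, 1.5, 3.73 and 2.98 CPM. B cells summed to 0.658, 1.74, 0.879, 2.12 and 0.149 CPM, and mast cells summed to 1.78, 0.945, 0, 1.19 and 0.818 CPM. Neutrophil genes were likewise sparse. S100a8 had 21.3, 10.2, 68.2, 13 and 6.99 CPM, but S100a9, its partner in calprotectin, had 2.63, 0.727, 1.32, 0.848 and 0.372 CPM and Ly6g had 0 counts.

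Markers of tissues that adjoin the gland were highest in different tumors. White adipocyte genes summed to 65.9, 54.8, 97.1, 472 and 70.7 CPM, highest in replicate 4, where Adipoq, the adipokine adiponectin, had 24.6 CPM against at most 1.5 CPM elsewhere and Plin1, the lipid droplet protein, had 13.7 CPM against at most 0.372 CPM. Skeletal muscle genes summed to 58.4, 9.88, 27.2, 9.58 and 7.81 CPM, and the muscle actin Acta1 and creatine kinase Ckm were highest in replicate 1 (13 and 5.64 CPM). Epidermal genes summed to 27.2, 20.6, 173, 25.1 and 33.7 CPM. Krt6a, a keratin of activated squamous epithelium, had 0.47, 2.25, 43.8, 0.0848 and 5.06 CPM and Krt1 0.658, 0.218, 12.6, 0.339 and 1.41 CPM. Ivl, involucrin, had 4.49 CPM in replicate 3 and 0 counts elsewhere. Krt10 was also highest in replicate 3, but Lor, loricrin, was highest in replicate 4. Whether the epidermal transcripts came from adjoining skin or from the tumor itself was not tested. Hemoglobin and other red cell genes summed to 278, 296, 452, 453 and 82.4 CPM, lowest in replicate 5. The Schwann cell list was carried by Sox10 (372, 363, 302, 394 and 370.0 CPM), which mammary epithelium also expresses.

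**Figure D2:**
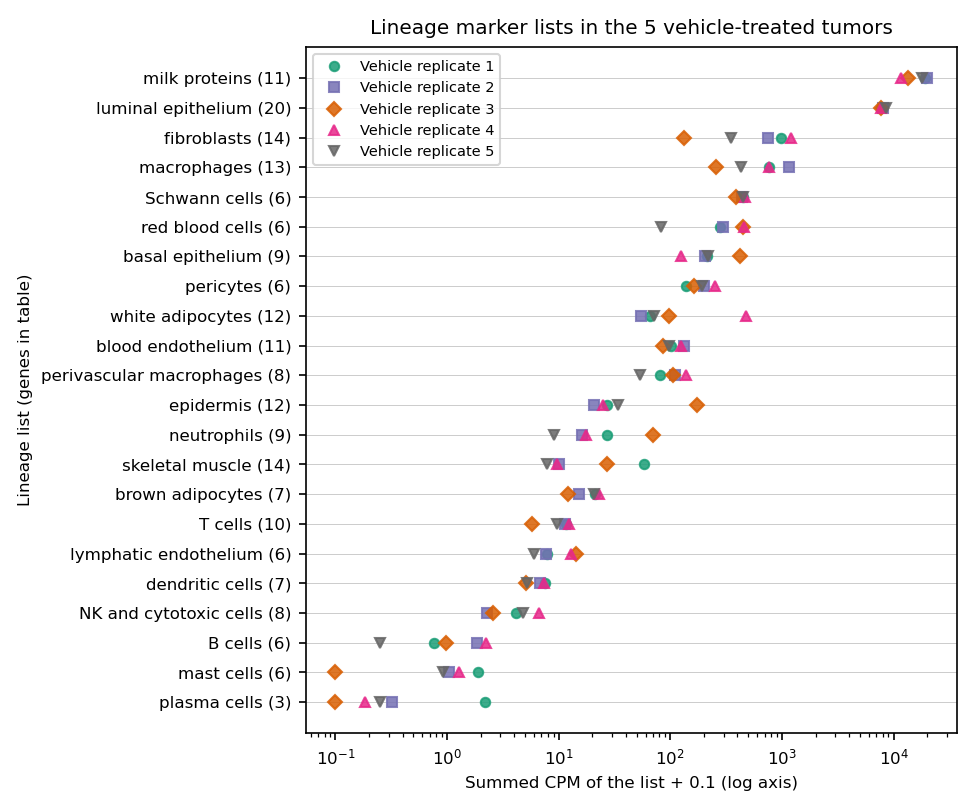
Summed CPM plus 0.1 (log axis) of 22 lineage lists in the 5 vehicle-treated tumors, 1 symbol per tumor, with the number of genes of each list in brackets. Luminal sums lie between 7657 and 8594 CPM, fibroblast sums between 132 and 1202 CPM, and T cell sums between 5.72 and 12.4 CPM.

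Among receptors through which mammary tumors grow, the ErbB family was led by Erbb3, with 146, 177, 268, 183 and 197 CPM, and Erbb2, with 85, 81, 96.1, 104 and 95.3 CPM. Egfr had 65.5, 72.7, 38.9, 105 and 74.7 CPM, lowest in replicate 3, and the ligand gene Areg, amphiregulin, stayed at or below 5.28 CPM. Of the 12 immune checkpoint genes 2 were expressed, Vsir (54.5, 58.4, 45.6, 50 and 50.6 CPM) and Cd276 (25.4, 29.7, 22.6, 26 and 30.6 CPM), and Cd274, which encodes PD-L1, had 1.03, 1.38, 1.76, 2.37 and 0.669 CPM. The 30 chemokine genes summed to 252, 170.0, 114, 228 and 167 CPM, of which Cx3cl1, fractalkine, had 110.0, 75.9, 35.3, 95.7 and 90.6 CPM. Cxcl12, a stromal chemokine, had 29.9, 14.6, 4.66, 22.9 and 18.6 CPM. Both were lowest in replicate 3, and 17 of the 30 chemokine genes had a mean under 1 CPM.

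Proliferation genes were present in each tumor. The 20 mitotic genes summed to 1067, 1307, 1468, 972 and 1436 CPM and the 20 DNA replication genes to 1078, 1316, 1358, 1001 and 1319.9 CPM, with replicate 4 lowest and replicate 3 highest in each. Mki67, the proliferation antigen, had 146, 150.3, 251, 142 and 200.1 CPM. Type I interferon response genes followed another order, with sums of 849, 452, 1133, 1008 and 395 CPM. Irf7, their amplifying transcription factor, had 167, 72.5, 179.6, 157 and 64.5 CPM and Isg15, a ubiquitin-like modifier, 73, 35.3, 60.5, 75.3 and 22.6 CPM. Replicates 2 and 5 were low for each of these values, and replicates 1, 3 and 4 were high. Clock genes gave a mixed picture, in which 9 of the 16 were lower in both replicates 2 and 3 than in each other tumor and 1, Npas2, was higher in both. Per1 had 140.0, 33.6, 36.8, 109 and 126 CPM, Dbp 19.5, 5.16, 6.68, 22.2 and 22.8 CPM and Tef 66.6, 31.1, 27.4, 82.7 and 81.1 CPM, with replicates 2 and 3, which share a sample code number of unstated meaning, below the other 3. Arntl, which encodes Bmal1, had 11.4, 24.6, 17.7, 19.7 and 13.9 CPM and was highest in replicate 2, Clock, its partner, had 35.8, 48.7, 64.5, 58.3 and 47.2 CPM and was highest in replicate 3, and Cry1 had 34.5, 32.3, 34.4, 32.4 and 24.2 CPM. The collection hour was not given in the labels.

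The sums of the hypoxia, glycolysis and lipid synthesis lists were highest in replicate 3, but the members of the lipid synthesis list were divided. The hypoxia response list summed to 1130.1, 1041, 3714, 996 and 1285 CPM, and its 11 expressed members were all highest there, a position replicate 3 held for 3529 of all 9684 expressed genes. Vegfa, the angiogenic growth factor, had 42.7, 46.9, 272, 40.5 and 63.7 CPM and Ndrg1 161, 159, 1028, 135 and 205 CPM. Among 14 glycolytic genes 11 were highest in replicate 3, such as Pgk1, phosphoglycerate kinase, with 1288 CPM against 333 to 540.2 CPM in the other 4. Aldoa, aldolase, was an exception with 1612, 1708, 2008, 2827 and 2193 CPM, highest in replicate 4, and Hk1 was lowest in replicate 3. The 12 lipid synthesis genes summed to 6160, 4074, 10012, 7232 and 5587 CPM. Of these genes 5 were highest and 3 lowest in replicate 3, beside 3529 and 2449 of all 9684 expressed genes. Scd1, a fatty acid desaturase, made up a large part of the sum in replicate 3, with 795, 515, 3766, 834 and 508 CPM in replicates 1 to 5. The lipogenic regulator Srebf1 had 1830.2, 968, 923, 2138 and 1419 CPM and was lowest in replicate 3.

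The promoters of 3 genes that differed between the tumors are shown, each from a gene group described here (ionocyte regulators, proton pump subunits and milk genes), and were picked after their values were seen. Foxi1 encodes the forkhead factor of ionocytes, cells of kidney, inner ear and airway that carry a proton pump, Atp6v1b1 encodes a subunit of that pump, and Csn2 is the milk gene described above. Each sequence holds the 250 bases before the annotated start (RefSeq, GRCm38.p6), 5′ to 3′ on the strand of the gene. Capitals mark TGGGAA, the core of RBPJ sites that mediate Notch signals, in Foxi1 (chr11:34208090-34208339, minus strand), the forkhead motif TGTTTAC in Atp6v1b1 (chr6:83742767-83743016, plus strand) and the Stat5 motif TTCNNNGAA in Csn2 (chr5:87699426-87699675, minus strand). Only the named motif was marked in each gene, and the Csn2 promoter also holds TGGGAA, left in lower case.
Foxi1: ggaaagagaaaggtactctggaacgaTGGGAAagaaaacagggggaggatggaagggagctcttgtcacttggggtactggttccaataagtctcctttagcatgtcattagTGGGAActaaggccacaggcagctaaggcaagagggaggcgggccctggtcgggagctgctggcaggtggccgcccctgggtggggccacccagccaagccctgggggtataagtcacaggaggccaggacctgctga
Atp6v1b1: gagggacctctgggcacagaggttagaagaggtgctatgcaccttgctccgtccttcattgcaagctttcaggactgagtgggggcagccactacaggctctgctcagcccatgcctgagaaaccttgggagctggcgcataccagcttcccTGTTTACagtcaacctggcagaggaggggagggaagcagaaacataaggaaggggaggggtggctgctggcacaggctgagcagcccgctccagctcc
Csn2: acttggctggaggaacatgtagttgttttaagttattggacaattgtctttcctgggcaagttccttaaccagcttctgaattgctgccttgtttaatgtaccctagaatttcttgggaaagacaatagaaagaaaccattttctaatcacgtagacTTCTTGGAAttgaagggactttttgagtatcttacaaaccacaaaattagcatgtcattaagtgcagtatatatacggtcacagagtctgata
Searched on both strands in the same window of 27025 promoters, TGGGAA was present in 21.5%, TGTTTAC in 3.09% and TTCNNNGAA in 7.18%. Among the 7752 promoters of expressed genes the shares were 20.2%, 1.99% and 5.64%. Of the 109 genes lowest by 4-fold or more in replicate 3, 75 had a promoter in the table, and 23 of these (30.7%) held TGGGAA and 2 held TGTTTAC. Of the 42 genes highest by the same margin, 31 had a promoter in this set, and 11 of these (35.5%) held TGGGAA, 1 held TGTTTAC and 3 held TTCNNNGAA. TTCNNNGAA was held by 3 of the 75 promoters of genes low in replicate 3. These groups were small and taken from the same data, and a role of these sites was not tested. The matches are descriptions of letters and do not mark a bound site.

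The spread of each expressed gene was measured as the SD of log2(CPM + 1) over the 5 tumors. Its median was 0.21, its quartiles were 0.15 and 0.31, and 268 genes (2.77%) exceeded 1. Without replicate 3 the median was 0.17 and 59 genes exceeded 1. The 30 most variable genes ended with Cd74 at 1.99, and the next was Mme at 1.98. Of these 30, replicate 3 was the lowest tumor for 21 and the highest for 8, and the remaining gene was Gm20388. Of the 8, Axin2, Cyp1b1, Ucp3, Klk7, Krt6a and Saa3 passed the limit of 10 CPM only through replicate 3. Their high place there was therefore fixed in advance. Cfd and Car3 likewise passed it only through replicate 4, and Gm20388 only through replicate 1.

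**Figure D3:**
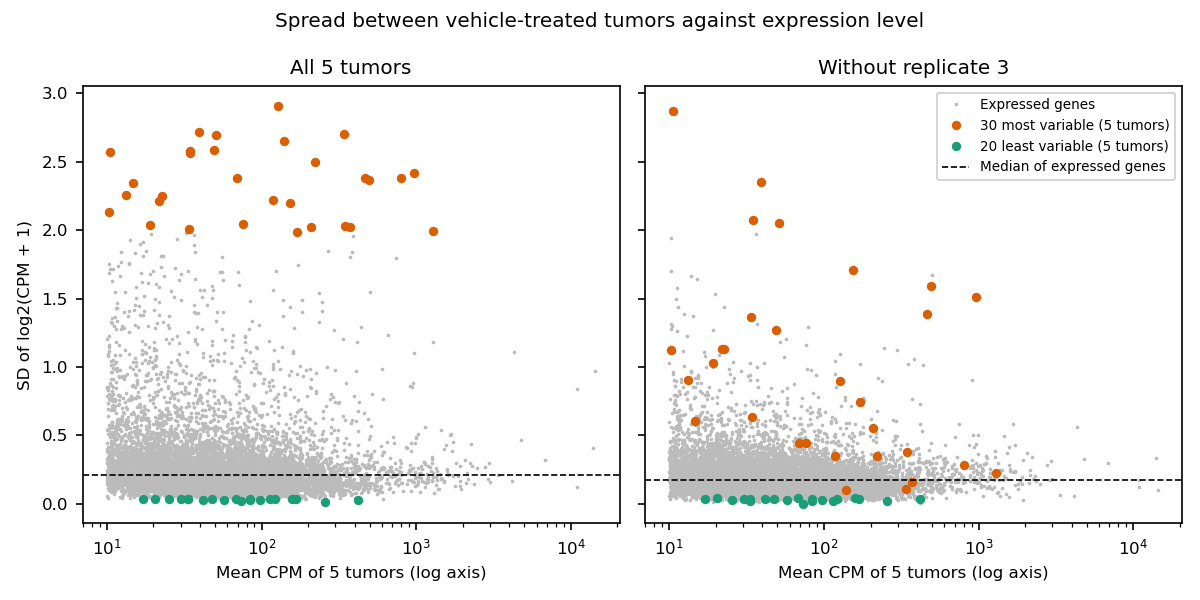
SD of log2(CPM + 1) against mean CPM (log axis) for 9684 expressed genes, over the 5 tumors (left) and without replicate 3 (right). The same 30 most variable and 20 least variable genes are colored in each panel, and the dashed median is 0.21 on the left and 0.17 on the right.

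Most of the variable genes were lowest in replicate 3, and several of them were even in the other 4 tumors. Foxi1 had 387, 408, 5.45, 446 and 451 CPM, and the SD of the other 4 tumors without replicate 3 was 0.11. Atp6v1b1, whose promoter is shown beside that of Foxi1, had 379, 457, 22.5, 567 and 527 CPM. Clic6, a chloride channel family member, had 786, 894, 23.8, 1236 and 1063 CPM. A list of 16 proton pump and ionocyte genes, chosen after these values were seen, had 5 expressed members, of which 4 were lowest in replicate 3 and Atp6v1c2 (119, 62.3, 289.5, 52.7 and 65 CPM) was highest there. Beside these, replicate 3 was lowest for 2449 and highest for 3529 of all 9684 expressed genes. Bsnd, Slc4a9 and Atp6v1g3, which mark renal intercalated and related cells, had 0 counts in the 5 tumors.

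Several Notch pathway genes were also lowest in replicate 3. Hey1, a transcriptional repressor induced by Notch, had 536, 377, 17.7, 302 and 493 CPM, Hes1, of the same class, 12 CPM in replicate 3 and at least 52.7 CPM in the other 4, and the ligand gene Dll1 93.4, 75.7, 3.08, 69.6 and 139.5 CPM. The receptor gene Notch1 had 217, 221, 123, 237 and 232 CPM, and Rbpj itself had 30.6, 28.7, 41.2, 25.4 and 32.7 CPM, highest in replicate 3. Of 10 expressed genes in this list, which was also chosen after the values were seen, 5 were lowest in replicate 3 and 2 highest. Over all 9684 expressed genes, 2449 were lowest and 3529 highest there.

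Matrix genes of elastic fibers formed another set. Eln, elastin, had 177, 159, 1.85, 167 and 188 CPM, with an SD of 2.65 over 5 tumors and 0.10 without replicate 3. Fbln5, fibulin 5, which tethers elastin, had 45, 46.7, 0.879, 23.4 and 26.5 CPM and Col11a1, a fibrillar collagen chain, 187, 312, 4.75, 287 and 311 CPM. In a list of 12 elastic fiber genes, also chosen after the values were seen, all 6 expressed members were lowest in replicate 3. Over all 9684 expressed genes, 2449 were lowest there. Among the other 4 tumors Eln and Fbln2 were highest in replicate 5, whereas Fbn1, Lox and Efemp2 were lowest there, as was the fibroblast sum. The part of fibroblast content in these values was not tested. Papln, the matrix protein papilin (408, 465, 19.1, 436 and 526 CPM), and Chil1, a chitinase-like secreted protein (1256, 1768, 72.1, 1669.6 and 1675 CPM), were low in replicate 3 as well.

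Other members were lowest in replicate 3 and uneven elsewhere. Tspan8, a tetraspanin of epithelial membranes, had the largest SD of all at 2.91, with 148, 299.9, 0.792, 65.2 and 121 CPM. Rbp7, a retinoid binding protein, had 27.1, 107, 0.264, 17.4 and 93 CPM, and Atp2a3, a calcium pump of the endoplasmic reticulum, 24.8, 200.2, 9.15, 422 and 113 CPM. For these genes the other 4 tumors also differed, and their SD without replicate 3 was 0.90, 1.27 and 1.71. Scara5, Smoc1, Itprid1, Hepacam2 and St8sia6 had SDs between 2.01 and 2.25.

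The genes highest in replicate 3 included Wnt feedback genes. Axin2, a negative regulator induced by β-catenin, had 0.846, 2.11, 162, 2.88 and 4.24 CPM. In a list of 12 such genes chosen after the values were seen, 4 were expressed. Axin2 and Tcf7 (3.85, 4.72, 42, 5.26 and 8.4 CPM), a partner of β-catenin, reached the limit of 10 CPM only through replicate 3. Their highest place there was therefore fixed in advance. The others were the ubiquitin ligase genes Znrf3 (14.8, 15.8, 61.6, 16.7 and 16.1 CPM) and Rnf43 (56.8, 67.4, 115, 78.4 and 51 CPM), which turn over Wnt receptors. These were also highest in replicate 3, as were 3529 of all 9684 expressed genes. With a mean below 10 CPM, Nkd1 had 1.22, 0.872, 12.7, 0.933 and 2.68 CPM and Apcdd1 1.78, 2.54, 23, 3.39 and 4.69 CPM. Lef1 had 0.846, 0.145, 0.616, 0.0848 and 0.298 CPM and was not highest there, and Sp5, Notum and Dkk4 stayed at or below 0.44 CPM.

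Cyp1b1, a cytochrome P450 induced through the aryl hydrocarbon receptor, had 10.1, 7.85, 314, 7.8 and 4.39 CPM, and Ahr, the receptor itself, 44.9, 46.9, 494, 55.7 and 47 CPM. Other genes known to respond to that receptor did not rank this way. Nqo1, a quinone reductase, had 85.1, 51.4, 8.71, 47.5 and 45.8 CPM and was lowest in replicate 3, Tiparp had 24.4, 9.88, 8.71, 13.5 and 23.4 CPM, and Cyp1a1 had 0 counts in the 5 tumors. Gjb2, connexin 26, had 65.1, 60.4, 1098, 80.1 and 49.9 CPM and was named after its values were seen. Ucp3, a mitochondrial carrier, had 0.0939, 1.31, 69.1, 1.44 and 1.79 CPM and Klk7, a kallikrein of cornified epithelium, 0.0939, 2.03, 59.8, 0.763 and 3.57 CPM, beside the keratin Krt6a given above. Cyp1b1, Ucp3, Klk7 and Krt6a passed the limit of 10 CPM only through replicate 3.

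Serum amyloid A genes were highest in replicate 3 but also uneven among the other tumors. Saa1, a serum amyloid A gene, had 324, 77.8, 1896, 137 and 22.5 CPM and its near-identical neighbor Saa2 226, 56, 1899, 120.0 and 23.6 CPM, and reads may be divided between them. Saa3 had 9.02, 2.76, 77.7, 5.17 and 0.893 CPM and passed the limit of 10 CPM only through replicate 3. Replicate 5 was lowest for each of the 3 genes. Lcn2, often induced with them, was lowest in replicate 3, and Lbp, which binds bacterial lipopolysaccharide, had 469.6, 336, 486, 309 and 339 CPM.

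A smaller group varied through other tumors. Cfd, adipsin, had 9.96, 3.92, 0, 176 and 6.1 CPM and Car3, the carbonic anhydrase of fat and muscle, 13.2, 4.43, 0.0879, 146 and 9.37 CPM, both highest in replicate 4 with the adipocyte sum given above. Npy, neuropeptide Y, had 204, 21.7, 0.264, 22.8 and 5.73 CPM and was highest in replicate 1, as was the neurotrophin receptor gene Ntrk2 (80.1, 8.43, 1.41, 11.3 and 11.2 CPM). Fcgbp, a mucin-like protein, had 264, 617, 32, 650.3 and 3264 CPM and was highest in replicate 5. Gm20388 had 52.6, 0, 0, 0 and 0 CPM. Its annotated span on chromosome 8 overlaps 39 other genes on the same strand, so its counts are uncertain.

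**Figure D4:**
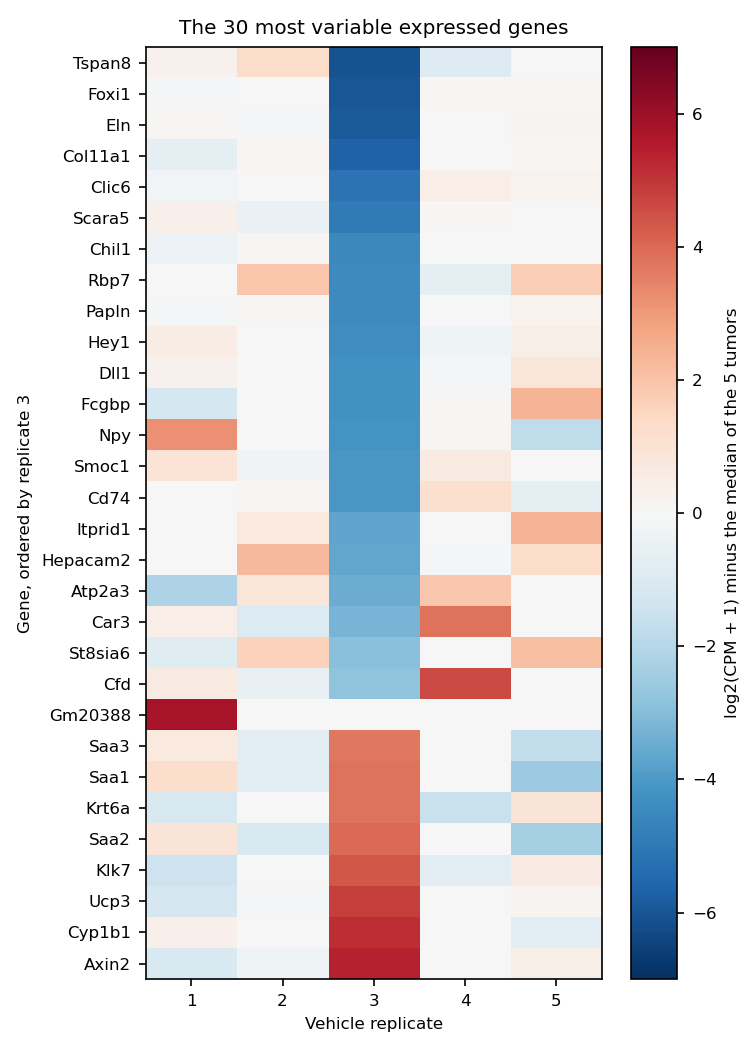
Heatmap of the 30 most variable expressed genes in vehicle replicates 1 to 5, as log2(CPM + 1) minus the median of the 5 tumors, ordered by replicate 3. The column of replicate 3 carries 21 lowest and 8 highest values, Cfd and Car3 stand out in replicate 4, and Gm20388 in replicate 1.

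Without replicate 3, 10 of these 30 genes remained among the 30 most variable. Gm20388 then led with an SD of 2.87, followed by Cfd (2.35), Car3 (2.08), Npy (2.05), Scgb1b27, a secretoglobin (1.97), and Acbd4 (1.95). Csn1s1, given above, was among them with 1.67. Cdkn2a, which encodes the p16 and p19 tumor suppressors, also entered, with 13.1, 12.1, 4.4, 2.12 and 30.7 CPM and replicate 5 highest.

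The 20 least variable expressed genes had means between 17.0 and 421 CPM. Stt3a, the catalytic subunit of the oligosaccharyltransferase that attaches N-glycans, was the steadiest, with 252, 259, 255, 256 and 258 CPM and an SD of 0.015. Pcsk7, a proprotein convertase, had 72.9, 72.8, 75.3, 72.9 and 73 CPM, Rab1a, a GTPase of transport between endoplasmic reticulum and Golgi, 414, 414, 424, 418 and 434 CPM and Maea, a subunit of a ubiquitin ligase complex, 172, 167, 169.8, 162 and 167 CPM. The 20 steadiest genes also held Creb3l2, Traf3ip2, Lmnb2 of the nuclear lamina, Snx9, Chtop and Ist1, and ended with 4921524J17Rik at an SD of 0.0352, next to Fbh1 at 0.0358. With 5 values per gene, such small SDs depend on which tumors were sampled, and leaving out 1 tumor at a time kept between 10 and 22 of the 50 least variable genes.

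Genes used as references in other assays were not among these 20. Ywhaz had an SD of 0.13, Ppia 0.14, Actb 0.15 and Tbp 0.17, below the median of 0.21. Gapdh had 0.34 and Pgk1 0.77, and Tfrc, the transferrin receptor, 0.79. Replicate 3 was highest for 10 of the 18 reference genes, beside 3529 of all 9684 expressed genes. Without replicate 3 Gapdh had an SD of 0.19 and Tfrc 0.29.

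The same genes were then read in the 25 treated tumors, as a description with no test. The 50 most variable vehicle genes had a median spread percentile between 98.0 and 99.0 in the 5 treated groups, and between 37 and 50 of the 50 were among the most variable 10% there. Chosen without replicate 3, the corresponding medians were between 98.3 and 99.2. The 50 least variable genes had medians between the 16.8th and 31.4th percentile. Axin2 ranged from 0.0835 to 42 CPM in the 25 treated tumors, none as high as vehicle replicate 3, and Foxi1 from 30.4 to 542 CPM, none as low. Gemcitabine replicate 3 had the lowest Foxi1, with 44.2 CPM of Hey1, 34 CPM of Axin2, 144 CPM of Cyp1b1 and 134 CPM of Ahr. KCL-HO-1i replicate 4 had the highest treated Axin2 (42 CPM) with 97.4 CPM of Foxi1. The treated library with the second lowest Foxi1, 5-FU replicate 4 (49.3 CPM), had 4.07 CPM of Axin2 and 309 CPM of Hey1, so low Foxi1 did not always come with these other values.

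**Figure D5:**
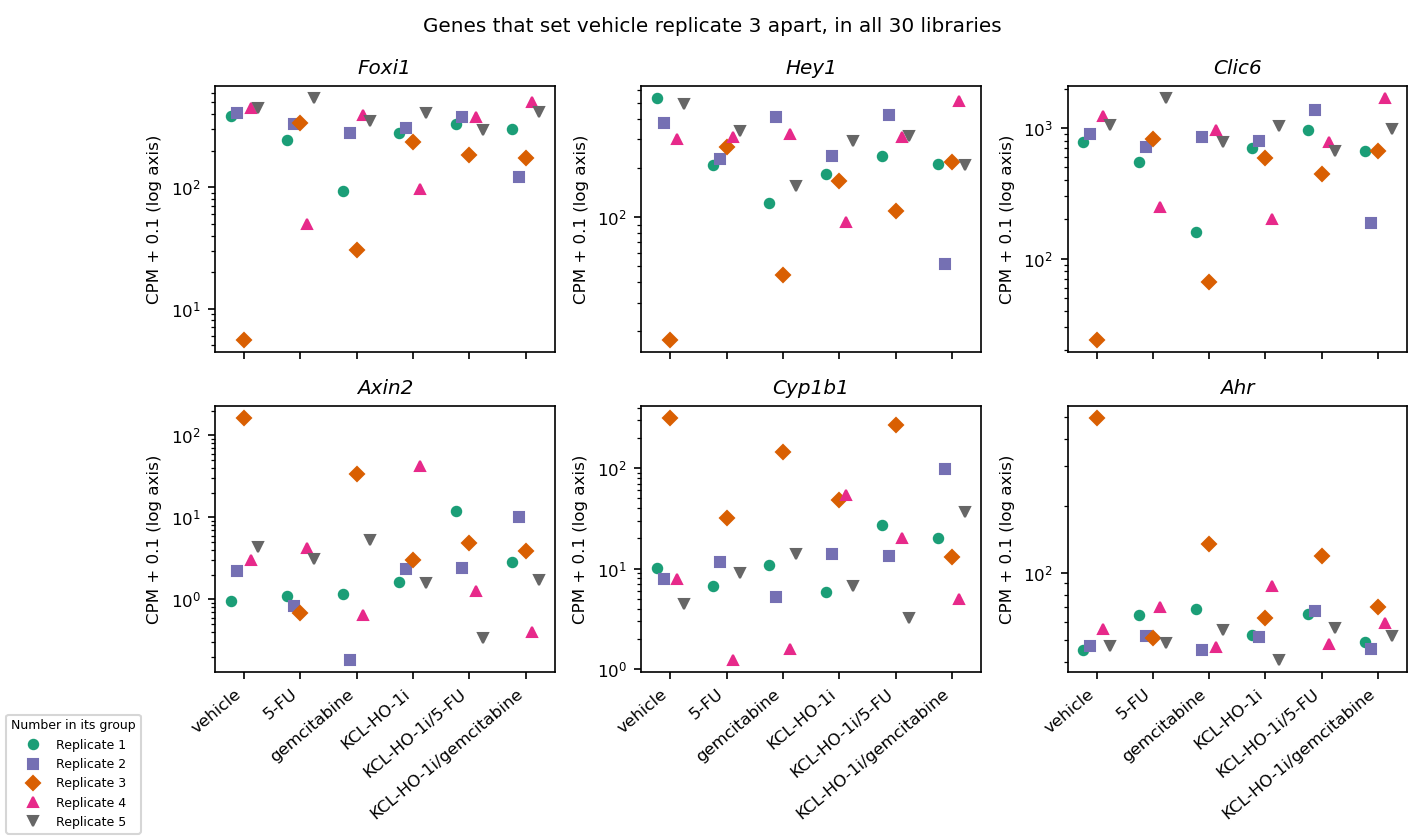
CPM plus 0.1 (log axis) of Foxi1, Hey1, Clic6, Axin2, Cyp1b1 and Ahr in the 30 libraries by treatment group, 1 symbol per library, with replicate numbers that do not pair libraries across groups. Vehicle replicate 3 has the lowest Foxi1 (5.45 CPM) and the highest Axin2 (162 CPM), and gemcitabine replicate 3 has 30.4 and 34.0 CPM.

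Neighboring genes were compared along chromosomes as blocks of about 80 expressed genes, taking in each tumor the median difference from the middle of all 30 libraries (mm10). Replicate 4 had its largest value, 0.43 on the log2 scale, over 130 genes at the distal end of chromosome 11 (chr11:113684412-121716306), where replicate 2 had 0.18. In replicate 5 the median over the 738 genes of chromosome 7 was 0.17, and between -0.06 and 0.06 in the other 4. In replicate 3 the block farthest from 0 was a lower one on chromosome 7, at -0.18, and in replicate 1 no block was farther from 0 than 0.10. DNA copy number was not measured.

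Vehicle was finally compared with the mean of the 5 treated groups, to ask which genes differed between them. With edgeR's quasi-likelihood test on 13663 genes, 0 genes were higher and 0 lower at an adjusted p under 0.05 (0.0% called in each direction), and the smallest adjusted p was 0.44. At an unadjusted p under 0.05, 634 genes were higher in vehicle (4.64%) and 844 lower (6.18%). DESeq2 called 1 gene and limma-voom 6, and without vehicle replicate 3 edgeR called 1, Bicdl1. The genes higher in vehicle with the smallest p were Ccdc6, Tmem229b, Bicdl1, Tsc22d3, a glucocorticoid-induced leucine zipper gene, and Plekhh1, with log2 differences between 0.65 ± 0.15 and 0.98 ± 0.24 (SE). Those lower in vehicle were Hcls1 and Lcp2, signaling adaptors of blood cells, with Tbx18, Rasgrp4 and Lyl1, at log2 differences between -1.04 and -3.35. None passed the adjusted threshold.

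Read against that background, 12 of 14 fibroblast genes, 12 of 14 skeletal muscle genes and 9 of 13 macrophage genes were lower in vehicle at the unadjusted threshold, with median log2 differences of -1.42, -4.19 and -0.89 beside -0.0087 over all genes tested. Single treated libraries stood apart in these lists. The skeletal muscle sum reached 15356 CPM in KCL-HO-1i/gemcitabine (group median 104) and 5046 CPM in KCL-HO-1i (median 190.0), while its median was 12.2 CPM in KCL-HO-1i/5-FU and 9.88 CPM in vehicle. The fibroblast sum reached 14516 CPM in KCL-HO-1i/gemcitabine (median 2513) against a vehicle median of 743 CPM. Vehicle replicate 3 had the lowest fibroblast and macrophage sums of the 5 vehicle tumors. Without it the counts were 5 of 14, 5 of 14 and 4 of 13, with medians of -1.15, -4.0 and -0.64, while over 13836 genes tested 245 were higher and 374 lower. For the 20 luminal genes the counts were 1 higher and 0 lower, with a median of 0.14. For the 8 T cell genes tested they were 0 and 0, with a median of -0.79. Of 16 clock genes 4 were higher and 2 lower, and Per1, with the vehicle values given above, had a mean of 89.2 CPM in vehicle and 44.8 CPM in the treated tumors. Without vehicle replicate 3 the clock counts were 5 and 0. Cholesterol synthesis genes were higher in 6 of 16, with a median of 0.36, and in 2 of 16 without vehicle replicate 3. No member of these lists passed the adjusted threshold.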

How the data were processed

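Total RNA of mammary tumors was sequenced with a directional kit per the labels. The submitters' processing notes name FastQC 0.11.9, STAR 2.7.9a, Salmon 1.9.0 and mm10, and per the methods of the study tximport summed transcripts to genes. The deposited table holds expected counts per gene, not scaled by length or library size, although the methods speak of TPM; in the vehicle columns 37.4% of values were not whole. Values were rounded. CPM used TMM effective library sizes (edgeR 4.0.16, R 4.3.3), and length scaling used the median GENCODE M21 transcript length, known for 9622 of 9684 expressed genes. Spread was the SD of log2(CPM + 1) among genes with a mean of at least 10 CPM. Vehicle was tested against the mean of 5 treated groups with edgeR's quasi-likelihood fit over all 30 libraries (6 group means, filterByExpr with a minimum count of 10, two-sided, Benjamini-Hochberg), and scripts were tested on simulated data.

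Named genes were the 20 with the highest mean CPM, the 30 most and 20 least variable, the defining markers and members of 22 lineage and 30 programme lists, and, in each direction of the test, at most 5 genes of lowest p. Alternatives changed the scaling, filter, pseudocount, measure of spread, tool (DESeq2 1.42.0, limma 3.58.1), covariates and the libraries included. The tumors, lists and tests were chosen with earlier results of these data known, and 6 further lists after the values were seen. A chi-square of counts found no duplicated vehicle library. Immunoglobulin genes were not analysed here, and a few list members are not reported here.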

Additional observations from a re-analysis of the deposited data

Results flagged for a closer look

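In 38 of 170 values of vehicle genes and lists, the highest or the lowest tumor lay far from the others, measured as its gap to the nearest tumor divided by the range of the 5. For normally distributed values chance alone would flag about 1 in 20. These ratios were taken on CPM without logs, where 1 high tumor weighs more, so that rate may not hold here. A gene with counts in 1 tumor only, such as Gm20388, reaches 1.0 by construction. The values are also not independent, since many members were named for their spread, and some were expressed only through the tumor concerned. Replicate 3 was the tumor concerned in 23 values, replicate 4 in 7, replicate 1 in 6, and replicates 2 and 5 in 1 each.

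With the gap as a share of the range in brackets, replicate 3 was low for Trf (0.808), Foxi1 (0.855), Eln (0.847) and Papln (0.767). Replicate 3 was high for Eef2 (0.748), Actg1 (0.763), Axin2 (0.979), Cyp1b1 (0.981), Saa2 (0.892), Saa1 (0.839), Ucp3 (0.976), Klk7 (0.942) and Krt6a (0.886). It was also high for Saa3 (0.894), Pcsk7 (0.907), Trp63 (0.76), Csn2 (0.815), Wap (0.948), S100a8 (0.766), Ms4a1 (1.0), Krt1 (0.903), the summed epidermis (0.914) and the summed hypoxia response (0.894). Ms4a1 rests on a value of 0.0879 CPM against 0 counts in the other tumors, below the 3-count limit.

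Replicate 4 was high for Cfd (0.944), Car3 (0.911), Flt3 (0.842), Adipoq (0.939), Plin1 (0.989) and the summed white adipocytes (0.899), and low for Chtf18 (0.721). Replicate 1 was high for Npy (0.889), Gm20388 (1.0), Jchain (0.928), Acta1 (0.882), Ckm (0.937) and the summed plasma cells (0.895). Replicate 2 was high for Mzb1 (1.0), at 0.145 CPM, and replicate 5 for Fcgbp (0.809). The plasma cell, Flt3 and Mzb1 values rest on levels of at most 2.07 CPM, and the steep ratios of Pcsk7 and Chtf18 belong to genes whose 5 values lay within narrow ranges.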

How the results depend on the processing

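Vehicle against the treated groups gave 0 calls in 34 of 37 alternatives. DESeq2 called 1 gene (Kcnk2, lower), limma-voom 6 (among them Bicdl1, Plcb4, Pllp and Reep1 higher and Hcls1 lower), and leaving out each library in turn gave 0 to 1. Genes at an unadjusted p under 0.05 were 1478 (42.9% higher in vehicle), but 32.3% of 1764 were higher with DESeq2, and the number was 619 without vehicle replicate 3, 921 without vehicle replicate 5 and 120 with the sample code number as a covariate. With the replicate number as a block there were 0 calls and 1236 genes at the unadjusted threshold; same-numbered libraries had a mean residual correlation of 0.0075 over 75 pairs, 6 of 30 libraries were closest to their own number, and the numbers were not taken as pairs. The number of expressed genes stayed between 9619 and 9700. Counting per kilobase of transcript, 337 genes held 50% of the total instead of 928, and leaving out 1 tumor gave 902 to 955. The median SD was 0.174 to 0.227 when 1 tumor was left out, the lowest without replicate 3. The 50 most variable genes shared 20 with the set without replicate 3, 19 under the coefficient of variation or the median absolute deviation and 32 at a mean of 30 CPM, and the 50 least variable shared 7 (residual from a trend on the mean) to 49 (pseudocount of 0.5, or the coefficient of variation). The cause of these changes was not tested. Under RLE scaling the lineage sums moved by less than 1 SD. Leaving out 1 tumor moved 5 mean sums by over 1.5 times: white adipocytes from 152 to 72.1 CPM without replicate 4, skeletal muscle from 22.6 to 13.6 and plasma cells from 0.504 to 0.113 without replicate 1, and epidermis from 56.0 to 26.7 and neutrophils from 28.0 to 17.3 without replicate 3. Counting error limits values under 0.282 CPM.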

Other observations

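Several gene groups not described above had sums that differed in order between the 5 vehicle tumors. Metallothioneins, which bind zinc and copper, summed to 224, 231, 547, 80.6 and 209 CPM in replicates 1 to 5. The 3 expressed members were highest in replicate 3, as were 3529 of all 9684 expressed genes. Matrix proteases and their inhibitors summed to 445, 425, 310.2, 404 and 273 CPM, keratins to 2734, 3121, 3142, 2424 and 3497 CPM and histones to 3982, 4465, 3576, 4611 and 3862 CPM. Keratins were highest in replicate 5 and lowest in replicate 4, with 10 of the keratin genes at a mean of at least 10 CPM.

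Stress programmes were present in each tumor. Heat shock genes summed to 7051, 5706, 6876, 7469 and 6874 CPM, genes of endoplasmic reticulum and integrated stress to 8195, 8574, 9064, 7585 and 8083 CPM and immediate early genes to 1673, 1206, 1403, 1422 and 1472 CPM. Targets of p53 summed to 609, 680.0, 840.1, 685 and 871 CPM, highest in replicate 5, and oxidative stress and heme response genes to 6038, 5197, 5442, 3869 and 4495 CPM. Nuclear genes of oxidative phosphorylation summed to 13578, 12520.0, 12516, 10796 and 12372 CPM and were highest in replicate 1, as were the mitochondrially encoded ones. Among the rarer lineages, lymphatic endothelium summed to 5.95 to 14.3 CPM, dendritic cells to 5.01 to 7.42 CPM, NK and cytotoxic cells to 2.18 to 6.61 CPM and brown adipocytes to 12.1 to 22.7 CPM.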
